A study of Mus musculus with 93 samples.

Results

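The Cyp3a family of mouse liver was described here by 8 genes: Cyp3a11, Cyp3a13, Cyp3a16, Cyp3a25, Cyp3a41a, Cyp3a41b, Cyp3a44 and Cyp3a59. They were taken by symbol from a table of 53465 genes, in which 11 symbols begin with Cyp3a. The family was chosen by its measured values, namely the CPM of Cyp3a11 in CAST/EiJ on both diets, so every CAST/EiJ value is given as a description with no test. Liver RNA of 93 male mice from 7 inbred strains was sequenced. The strains were C57BL/6J, DBA/2J, A/J and 129S1/SvImJ, and the wild-derived WSB/EiJ, CAST/EiJ and PWK/PhJ. All mice were moved to 30°C (thermoneutrality) at 6 wk of age. From 7 wk they ate a western-style diet (WD, with 40% of calories from fat, 17% from protein and 43% from carbohydrate) or a matched control diet (CD, with 10%, 17% and 73%). The diets lasted 17 wk, and livers were taken from mice aged 24 wk that had fasted for 4 h. The CD and WD groups held 8 and 8 C57BL/6J mice, 6 and 7 DBA/2J mice, 5 and 6 A/J mice, 7 and 6 129S1/SvImJ mice, 6 and 6 WSB/EiJ mice, 7 and 8 CAST/EiJ mice, and 6 and 7 PWK/PhJ mice.

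Enzymes of the Cyp3a family are cytochromes P450 of the endoplasmic reticulum that oxidise drugs, steroid hormones and bile acids. Cyp3a11 is the main form in adult mouse liver, and it is the classical target of the pregnane X receptor (PXR, encoded by Nr1i2) and the constitutive androstane receptor (CAR, encoded by Nr1i3). Cyp3a41a, Cyp3a41b and Cyp3a44 are known as female-predominant forms in adult mouse liver, under the control of the sex-specific pattern of growth hormone. All livers studied here came from males.

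The 8 genes lie on chromosome 5 (GRCm38), 7 of them in a cluster of 677 kb and Cyp3a13 on its own, 7.51 Mb away. The cluster runs from chr5:145436309 to chr5:146113287. Cyp3a16 (chr5:145436309-145469723), Cyp3a41b (chr5:145558664-145584730), Cyp3a41a (chr5:145694049-145720136), Cyp3a44 (chr5:145773983-145805874), Cyp3a11 (chr5:145854426-145879964) and Cyp3a25 (chr5:145977194-146009618) are read from the minus strand. Cyp3a59 (chr5:146079257-146113287) is read from the plus strand. Cyp3a13 (chr5:137892932-137921619, minus strand) overlaps the annotated gene Gm15502 on the same strand. The promoters are shown next because several members have close copies of one upstream sequence. They are RefSeq sequences of GRCm38.p6, 5′ to 3′ on the gene's own strand, ending at the base before the annotated start. Capitals mark the letters AGGTCA or AGTTCA on either strand, the 2 half-site spellings used for nuclear receptors. Cyp3a11, which rose on WD in most of the tested strains, comes first (chr5:145879965-145880104, minus strand).
Cyp3a11: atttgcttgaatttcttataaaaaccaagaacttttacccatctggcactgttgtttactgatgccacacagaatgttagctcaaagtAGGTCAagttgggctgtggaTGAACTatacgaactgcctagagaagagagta
Cyp3a41a (chr5:145720137-145720386), Cyp3a44 (chr5:145805875-145806124) and Cyp3a16 (chr5:145469724-145469973), all on the minus strand, are 3 of the 4 members that fell on WD in PWK/PhJ.
Cyp3a41a: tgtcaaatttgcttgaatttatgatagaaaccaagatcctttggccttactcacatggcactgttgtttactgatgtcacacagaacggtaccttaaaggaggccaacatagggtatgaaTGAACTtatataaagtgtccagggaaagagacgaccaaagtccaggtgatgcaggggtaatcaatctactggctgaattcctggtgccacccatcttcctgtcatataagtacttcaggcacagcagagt
Cyp3a44: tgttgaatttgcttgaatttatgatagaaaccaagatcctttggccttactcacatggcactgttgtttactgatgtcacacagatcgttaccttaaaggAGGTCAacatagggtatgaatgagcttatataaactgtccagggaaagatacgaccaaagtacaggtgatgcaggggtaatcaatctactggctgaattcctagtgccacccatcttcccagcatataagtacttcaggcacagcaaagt
Cyp3a16: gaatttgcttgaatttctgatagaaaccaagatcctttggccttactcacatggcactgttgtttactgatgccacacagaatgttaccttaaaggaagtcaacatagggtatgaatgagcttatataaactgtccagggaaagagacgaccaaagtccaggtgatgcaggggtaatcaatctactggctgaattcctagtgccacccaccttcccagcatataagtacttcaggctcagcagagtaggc
Cyp3a25 (chr5:146009619-146009868, minus strand) and Cyp3a59 (chr5:146079008-146079256, plus strand) form the other close pair.
Cyp3a25: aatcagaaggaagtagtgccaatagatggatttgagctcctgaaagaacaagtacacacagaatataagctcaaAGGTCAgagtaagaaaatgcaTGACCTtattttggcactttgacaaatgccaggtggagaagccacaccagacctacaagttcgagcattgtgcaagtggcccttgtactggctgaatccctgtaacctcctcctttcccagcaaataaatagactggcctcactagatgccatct
Cyp3a59: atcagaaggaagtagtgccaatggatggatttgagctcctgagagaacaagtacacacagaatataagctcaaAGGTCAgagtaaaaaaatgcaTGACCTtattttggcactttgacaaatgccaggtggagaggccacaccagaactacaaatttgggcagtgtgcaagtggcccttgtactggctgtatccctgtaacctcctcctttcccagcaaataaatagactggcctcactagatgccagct

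Over the aligned bases, the promoters of Cyp3a41a and Cyp3a41b were 99.6% identical, with 1 mismatch. Cyp3a16 and Cyp3a44 were 95.9% identical, Cyp3a25 and Cyp3a59 95.6%, and Cyp3a41a and Cyp3a44 94.4%. Cyp3a11 had 1 match to each half-site, Cyp3a25 and Cyp3a59 each had 2 matches to AGGTCA, Cyp3a44 had 1 match to AGGTCA, and Cyp3a41a and Cyp3a41b each had 1 match to AGTTCA. The windows of Cyp3a13 and Cyp3a16 held neither. Of 27025 mouse promoters of 250 bases, 13.8% held AGGTCA and 11.9% held AGTTCA, so single matches are common. On both strands, the letters TTCNNNGAA (in 7.18% of all promoters), the spacing called DR3 (a pair of these half-sites in the same direction with NNN between them, in 0.0111%) and the spacing called ER6 (a pair facing away from each other with NNNNNN between them, in 0.0111%) were in none of the members' windows. The window printed for Cyp3a11 is shorter, at 140 bases, and its matches in the full 250 bases were the same. A match describes the letters only, and no binding was measured.

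Close copies matter for the counts, because a read that lies in 2 genes equally well is not assigned to either. In transcripts cut into windows of 100 bases, 90.8% of the windows of Cyp3a41a and 88.2% of those of Cyp3a41b also occurred in another gene, almost always in the other of the pair, and the pair of transcripts was 99.9% identical. For the other members the share was 6.05% for Cyp3a25, 5.61% for Cyp3a59, 5.37% for Cyp3a44, 0.312% for Cyp3a11, 0.123% for Cyp3a16 and 0 for Cyp3a13. The read length is not given in the sources used here, and shorter windows are shared more often. With windows of 50 bases the shares were 98.6% for Cyp3a41a, 93.5% for Cyp3a41b, 28% for Cyp3a59, 26.8% for Cyp3a25, 26.5% for Cyp3a44, 14.8% for Cyp3a11, 10.7% for Cyp3a16 and 0 for Cyp3a13. Levels of Cyp3a41a and Cyp3a41b are therefore uncertain and too low, while a comparison of 1 gene between the diets of a strain is made on the same windows. The windows come from reference transcripts, and those of the other strains were not examined. All reads were mapped to the C57BL/6J genome, and the part of mapping in strain differences was not tested.

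Each mouse had 40020424 to 49894856 reads on genes (median 46618609), and RNA integrity numbers ran from 7 to 9.7. Reads mapping to several places made up 8.03 to 12.2% of each library, and all 8 hepatocyte markers were well covered in every group. Levels are given as CPM, the reads of a gene scaled to a common library total, with TMM-normalized library sizes. Fold changes are log2 values from 1 limma-voom fit of the 14 group means, and a gene was called at an adjusted p below 0.05 over the 19110 genes tested. All 8 members entered the test, but Cyp3a16, Cyp3a41a, Cyp3a41b and Cyp3a44 did so only through the groups in which they were high. In bulk liver, fewer cells of a type and less RNA per cell cannot be told apart.

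By limma's test, the western diet raised 1 to 3 members of the family in each tested strain and lowered 4 members in PWK/PhJ. In DBA/2J, 3 members rose and 0 fell, against 10.2% and 7.77% of all genes. In 129S1/SvImJ, 2 rose and 0 fell, against 14.5% and 13.6%. In WSB/EiJ, 2 rose and 0 fell, against 4.97% and 3.97%. In A/J, 2 rose and 0 fell, against 4.39% and 4.64%. In C57BL/6J, 1 rose and 0 fell, against 14.3% and 11.9%, which is a share near that of all genes. In PWK/PhJ, 1 rose and 4 fell, against 15.1% and 14.5%. Those 4, and Cyp3a16 among the members that rose in WSB/EiJ, had entered the test only through the groups where they were high. No excess over all genes is therefore read from the PWK/PhJ falls or the WSB/EiJ rises. In the 5 strains where limma called 0 lower, 0 members were lower at an unadjusted p under 0.05 as well, and edgeR and DESeq2 called 0 lower except for 1 in C57BL/6J, which was Cyp3a44. In C57BL/6J both of these tools called 0 members higher. The heat map of the WD effect gives the log2 fold change of each member in each strain.

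**Figure D1:**
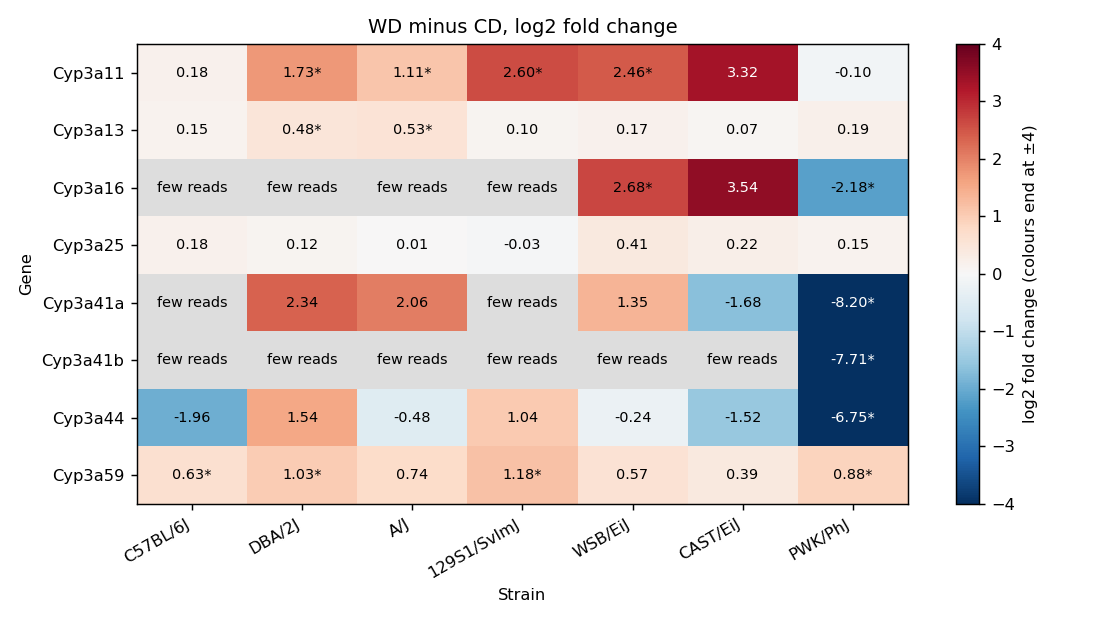
Log2 fold change of each Cyp3a member (rows) on WD relative to CD in each strain (columns), from the limma-voom fit. Stars mark an adjusted p below 0.05, CAST/EiJ was not tested, and grey cells had group means of at most 3 counts per library on both diets. Cyp3a11 is red in DBA/2J, A/J, 129S1/SvImJ, WSB/EiJ and CAST/EiJ, and the Cyp3a41a, Cyp3a41b and Cyp3a44 cells of PWK/PhJ are dark blue, between -8.20 and -6.75.

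Cyp3a11, the main inducible form, rose on WD in DBA/2J, A/J, 129S1/SvImJ and WSB/EiJ, by between 2.17-fold and 6.08-fold. In C57BL/6J and PWK/PhJ, which had the highest levels on CD, no change was called. In 129S1/SvImJ, Cyp3a11 lay between 226 and 462 CPM on CD (median 254, n = 7) and between 1228 and 2439 CPM on WD (median 1900, n = 6). In WSB/EiJ it lay between 70.7 and 209 CPM on CD (median 99.8, n = 6) and between 215 and 872 CPM on WD (median 699, n = 6). In DBA/2J it lay between 501 and 1050 CPM on CD (median 640, n = 6) and between 1714 and 3076 CPM on WD (median 2217, n = 7). In these 3 strains every WD mouse was above every CD mouse, although in WSB/EiJ the lowest WD mouse (215 CPM) and the highest CD mouse (209 CPM) nearly met. The log2 fold change was 2.60 in 129S1/SvImJ (SE 0.249, limma adjusted p = 2.5e-13), 2.46 in WSB/EiJ (SE 0.240, adjusted p = 4.1e-13) and 1.73 in DBA/2J (SE 0.254, adjusted p = 1.7e-07). With no filter on low counts the WSB/EiJ value was 2.44, but its SE was 0.937 and the limma adjusted p was 0.17.

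In A/J the 5 CD mice had 1690, 1840, 3220, 2830 and 2280 CPM of Cyp3a11, and the 6 WD mice had between 2919 and 6800 CPM (median 5803). In 5 of the 6 WD mice the level was above every CD mouse, and the lowest WD mouse lay within the CD range. The log2 fold change was 1.11 (SE 0.293, limma adjusted p = 0.0079). In C57BL/6J the CD mice lay between 2179 and 5503 CPM (median 2816, n = 8) and the WD mice between 3065 and 4415 CPM (median 3544, n = 8), so the WD range fell inside the CD range. The log2 difference was 0.18 (95% confidence interval -0.299 to 0.659, limma adjusted p = 0.64). In PWK/PhJ the CD mice lay between 3042 and 5934 CPM (median 4921, n = 6) and the WD mice between 2893 and 5941 CPM (median 4619, n = 7). Here the ranges nearly coincided, and the log2 difference was -0.10 (95% confidence interval -0.637 to 0.442, limma adjusted p = 0.84).

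**Figure D2:**
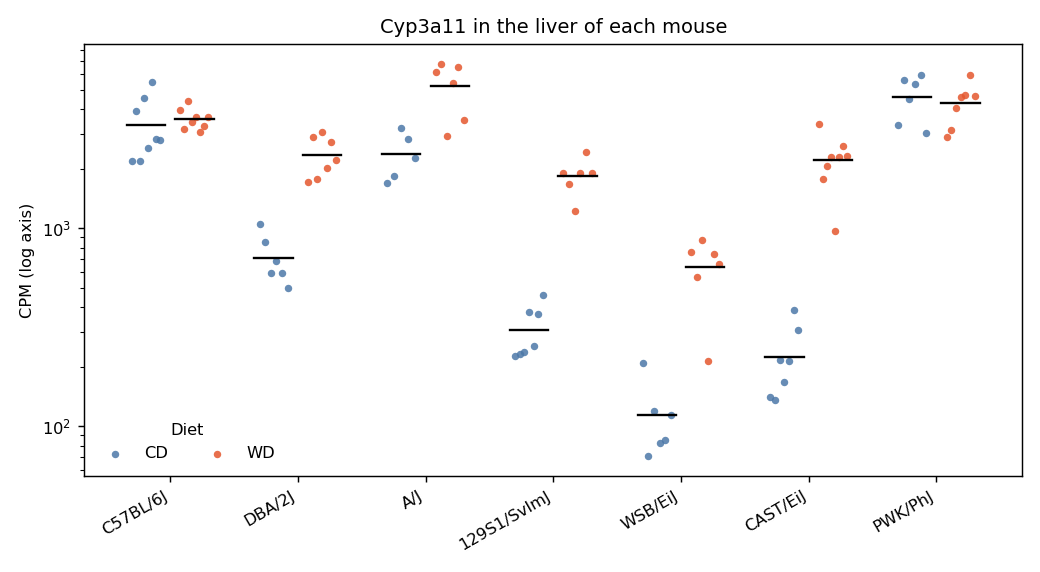
Cyp3a11 level in CPM (log axis) in each mouse, by strain and diet, with 1 point per mouse and a black bar at the group mean. Blue CD points lie below all orange WD points in DBA/2J, 129S1/SvImJ, WSB/EiJ and CAST/EiJ, and the ranges of both diets overlap in C57BL/6J, A/J and PWK/PhJ.

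Whether the WD effect on Cyp3a11 was the same in the 6 tested strains was asked with an F test in the same fit, and the effect differed (limma adjusted p = 3.2e-10). Each strain was studied in 2 cohorts or more. Within cohorts, the difference in mean log2 CPM was 2.77 and 2.53 in 129S1/SvImJ, 2.28 and 2.82 in WSB/EiJ, 1.53 and 0.80 in A/J, and 1.49 and 1.96 in DBA/2J. All of these were positive. In C57BL/6J it was 0.475 and -0.0587, and in PWK/PhJ -0.392 and 0.112. In CAST/EiJ, which was not tested, the CD mice lay between 137 and 389 CPM (median 214, n = 7) and the WD mice between 966 and 3373 CPM (median 2292, n = 8), with a log2 difference of 3.32 and within-cohort differences of 4.03, 3.12 and 3.23. The difference in CAST/EiJ is the value known when the family was chosen.

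The strain means of Cyp3a11 were spread more widely on CD than on WD. On CD the group means ran from 114 ± 50.6 CPM in WSB/EiJ (SD, n = 6) to 4622 ± 1216 CPM in PWK/PhJ (n = 6), a ratio of 40.7. On WD they ran from 636 ± 230 CPM in WSB/EiJ (n = 6) to 5226 ± 1634 CPM in A/J (n = 6), a ratio of 8.22. The change in this ratio was not itself tested. In order of the CD means, PWK/PhJ, C57BL/6J and A/J (2371 CPM) had overlapping ranges, DBA/2J (713 CPM) stood apart from its neighbours, and 129S1/SvImJ (309 CPM), CAST/EiJ (225 CPM) and WSB/EiJ overlapped one after another. On WD only WSB/EiJ was separated from the next strain.

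Relative to C57BL/6J on CD, the level of Cyp3a11 was lower in WSB/EiJ (log2 fold change -4.89, SE 0.237, limma adjusted p = 3.8e-32), 129S1/SvImJ (-3.40, SE 0.234, adjusted p = 1.7e-22) and DBA/2J (-2.18, SE 0.249, adjusted p = 5.2e-12). In these 3 strains no mouse overlapped with C57BL/6J. In A/J the log2 difference was -0.45 (limma adjusted p = 0.19). In PWK/PhJ it was 0.51 (adjusted p = 0.09), which became 0.628 with an adjusted p of 0.04 without C57BL/6J CD replicate 6. In CAST/EiJ, described only, it was -3.90.

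The level of every member differed among the CD groups of the 6 tested strains by limma's F test, 8 of 8, where 88% of all genes tested did so, and 4 of the 8 had entered the test only through high groups. Against C57BL/6J on CD, DBA/2J had 1 member higher and 2 lower, where 20.4% and 19.3% of all genes were. A/J had 3 higher and 1 lower, against 20.1% and 18.3%. 129S1/SvImJ had 0 higher (0 also at an unadjusted p under 0.05 and by edgeR and DESeq2) and 1 lower, against 24.5% and 24.4%. WSB/EiJ had 4 higher and 2 lower, against 27.1% and 26.7%, and PWK/PhJ had 5 higher and 1 lower, against 29.4% and 28.6%. Among those higher were Cyp3a16, Cyp3a41a, Cyp3a41b and Cyp3a44 in PWK/PhJ, Cyp3a16 and Cyp3a41a in WSB/EiJ, and Cyp3a44 in A/J. These had entered the test only through high groups, so no excess over all genes is read from the higher counts of these strains. WSB/EiJ shared no cohort with another strain, so cohort and strain cannot be told apart there. DBA/2J and 129S1/SvImJ shared no cohort with C57BL/6J either, so their CD mice were compared with C57BL/6J across cohorts. The F test called a WD effect that differed among the 6 strains for 5 members, where it called 26.8% of all genes tested. As 4 of the 5 had entered the test only through high groups, nothing is read from that count. These were Cyp3a11, Cyp3a16, Cyp3a41a, Cyp3a41b and Cyp3a44, and not Cyp3a13, Cyp3a25 or Cyp3a59.

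Cyp3a25, the other abundant hepatic form, was not called for diet in any tested strain. Its group means on CD ran from 455 ± 144 CPM in C57BL/6J (SD, n = 8) to 2441 ± 293 CPM in CAST/EiJ (n = 7), a ratio of 5.37. CAST/EiJ stood above all other strains, A/J (1164 CPM), DBA/2J (1021 CPM), PWK/PhJ (959 CPM) and WSB/EiJ (885 CPM) overlapped in turn, and 129S1/SvImJ (522 CPM) overlapped with C57BL/6J at the low end. The same break, between a low pair and the other strains, was seen on WD. Relative to C57BL/6J on CD, the log2 fold change was 1.41 in A/J (SE 0.166, limma adjusted p = 2.2e-11), 1.22 in DBA/2J (SE 0.157, adjusted p = 3.7e-10), 1.12 in PWK/PhJ (SE 0.157, adjusted p = 2.1e-09) and 1.02 in WSB/EiJ (SE 0.155, adjusted p = 3.7e-08). In these 4 strains no mouse overlapped with C57BL/6J. In 129S1/SvImJ the log2 difference was 0.25 (limma adjusted p = 0.16, or 0.338 with an adjusted p of 0.049 without C57BL/6J CD replicate 7). Cyp3a25 and Cyp3a11 thus had different strain orders on CD, with C57BL/6J near the top for one and at the bottom for the other.

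On WD, the log2 differences of Cyp3a25 lay between -0.03 in 129S1/SvImJ and 0.41 in WSB/EiJ. In WSB/EiJ the CD mice lay between 767 and 1006 CPM (median 888, n = 6) and the WD mice between 1046 and 1431 CPM (median 1100, n = 6). The groups did not overlap, but the difference did not pass the test across all strains (log2 0.41, SE 0.169, limma adjusted p = 0.13). In a fit of the WSB/EiJ mice alone it did, with a log2 fold change of 0.399 and an adjusted p of 0.022. In C57BL/6J the log2 difference was 0.18 (adjusted p = 0.39), and without WD replicate 3 it was 0.349 (limma adjusted p = 0.038). An F test did not find that the effect of WD on Cyp3a25 differed among the strains (limma adjusted p = 0.62).

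Cyp3a59 is the closest relative of Cyp3a25, with 97% identity between the transcripts, and its level per kilobase was lower than that of Cyp3a25 in every group. It rose on WD in DBA/2J, 129S1/SvImJ, C57BL/6J and PWK/PhJ. In DBA/2J the CD mice lay between 14.6 and 31.5 CPM (median 25.6, n = 6) and the WD mice between 38.3 and 60.5 CPM (median 52.0, n = 7). In 129S1/SvImJ the CD mice lay between 11.6 and 22.5 CPM (median 15.1, n = 7) and the WD mice between 25.01 and 42.4 CPM (median 36.6, n = 6). In both strains all WD mice were above all CD mice, and the log2 fold changes were 1.03 (SE 0.258, limma adjusted p = 0.0021) and 1.18 (SE 0.269, adjusted p = 0.00041). In C57BL/6J the CD mice spread from 6.89 to 38.1 CPM (median 22.7, n = 8) and the WD mice from 13.4 to 44.7 CPM (median 30.0, n = 8). In PWK/PhJ the CD mice spread from 3.99 to 15.7 CPM (median 5.94, n = 6) and the WD mice from 7.95 to 26.2 CPM (median 10.7, n = 7). The diets overlapped in both of these strains, and the log2 fold changes were 0.63 (SE 0.235, limma adjusted p = 0.036) and 0.88 (SE 0.336, adjusted p = 0.037).

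Calls of Cyp3a59 in C57BL/6J and PWK/PhJ depended on single mice. In C57BL/6J the call was lost without any 1 of 7 of the 16 mice (CD replicates 1, 3 and 5 and WD replicates 1, 2, 4 and 5), with log2 values from 0.431 without CD replicate 3 to 0.808, and also with edgeR (adjusted p = 0.1) and DESeq2 (adjusted p = 0.09). In PWK/PhJ it was lost without any 1 of 7 of the 13 mice (CD replicates 1, 2, 3 and 6 and WD replicates 2, 4 and 5), with values from 0.698 to 1.13. It was also lost with cohort in the fit (0.834, adjusted p = 0.051) and with no filter on low counts (0.886, adjusted p = 0.14). In A/J the 5 CD mice had 25.2, 26.8, 47.4, 44.1 and 21.4 CPM of Cyp3a59, and the WD mice lay between 39.0 and 70.8 CPM (median 56.7, n = 6). The log2 difference was 0.74 (SE 0.275, limma adjusted p = 0.075), and 0.90 with an adjusted p of 0.043 without CD replicate 3. In WSB/EiJ the CD mice lay between 3.22 and 4.84 CPM and the WD mice between 5.55 and 7.69 CPM, with no overlap and a log2 difference of 0.57 (SE 0.443, limma adjusted p = 0.50). In a fit of the WSB/EiJ mice alone the value was 0.568 with an adjusted p of 0.0097. The F test did not find that the WD effect on Cyp3a59 differed among strains (limma adjusted p = 0.67).

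On CD, Cyp3a59 ran from 4.20 ± 0.651 CPM in WSB/EiJ (SD, n = 6) to 59.6 ± 10.6 CPM in CAST/EiJ (n = 7), and neighbours in the order overlapped throughout. It was lower than in C57BL/6J (21.6 CPM) in WSB/EiJ (log2 fold change -2.19, SE 0.376, limma adjusted p = 7e-07) and in PWK/PhJ (-1.53, SE 0.318, adjusted p = 2.3e-05). In A/J it was higher (0.73, SE 0.267, adjusted p = 0.024), and that call was lost without C57BL/6J CD replicate 1 or 3 or A/J CD replicate 3 or 4, with edgeR (adjusted p = 0.064) and with cohort in the fit (0.495, adjusted p = 0.19). The 2 close copies therefore stood differently in WSB/EiJ and PWK/PhJ, where Cyp3a25 was higher and Cyp3a59 lower than in C57BL/6J.

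**Figure D3:**
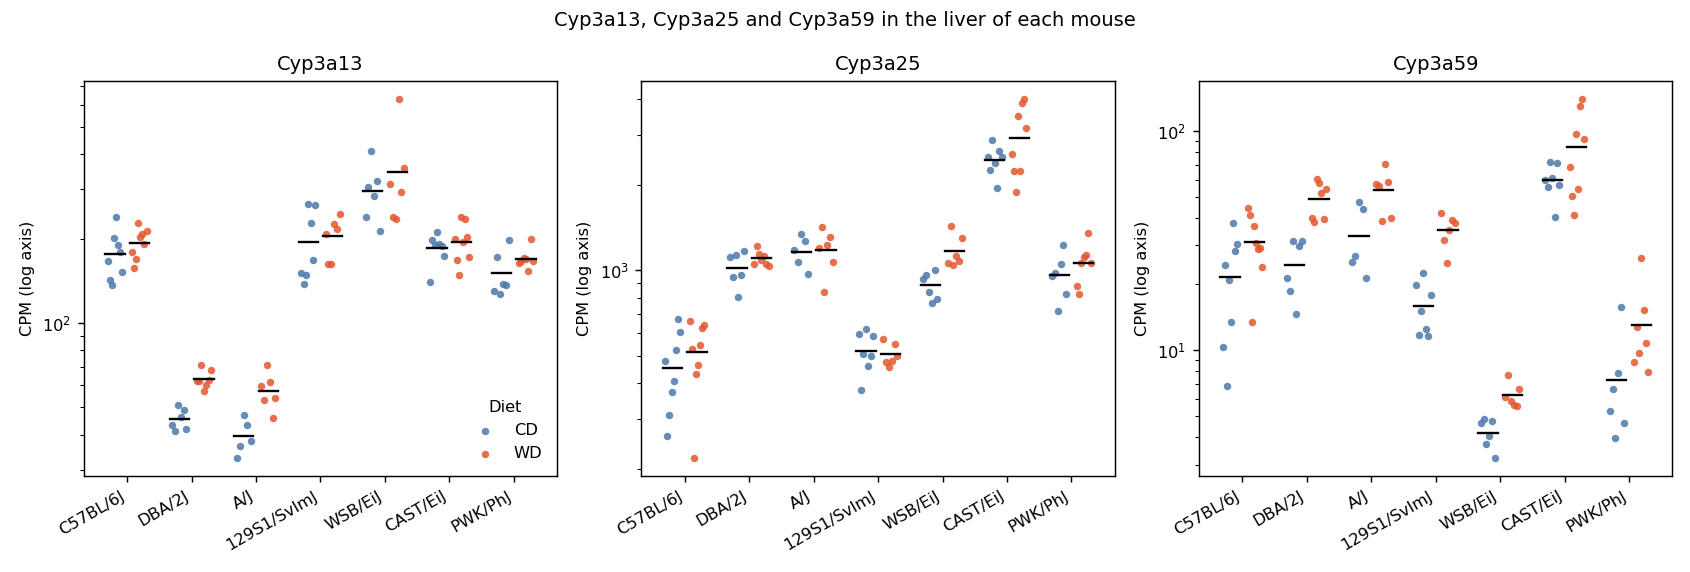
Levels of Cyp3a13, Cyp3a25 and Cyp3a59 in CPM (log axes with different ranges) in each mouse, by strain and diet, with 1 point per mouse and a black bar at the group mean. Cyp3a13 sits below 71 CPM in every DBA/2J and A/J mouse and above 127 CPM in the other strains, and Cyp3a25 is highest in CAST/EiJ.

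Cyp3a13, a form also known from the intestine and the only member outside the cluster, split the strains into a low pair and the rest. On CD its mean was 39.6 ± 5.54 CPM in A/J (SD, n = 5) and 45.5 ± 3.94 CPM in DBA/2J (n = 6), and between 150 CPM in PWK/PhJ and 296 CPM in WSB/EiJ in the other 5 strains. No mouse of the low pair reached the lowest mouse of the others on either diet. Relative to C57BL/6J on CD (176 ± 34.0 CPM, n = 8), the log2 fold change was -2.14 in A/J (SE 0.145, limma adjusted p = 9.2e-23) and -1.93 in DBA/2J (SE 0.137, adjusted p = 9.9e-22). In WSB/EiJ it was 0.74 (SE 0.141, adjusted p = 6.2e-06). In 129S1/SvImJ and PWK/PhJ the differences were 0.12 and -0.22 (limma adjusted p = 0.49 and 0.17), and the first of these turned to -0.164 with cohort in the fit.

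The low pair were also the strains in which Cyp3a13 rose on WD. In DBA/2J the CD mice lay between 41.3 and 51.0 CPM (median 44.8, n = 6) and the WD mice between 57.2 and 70.9 CPM (median 62.4, n = 7), with no overlap. In A/J the 5 CD mice had 33.1, 36.6, 46.9, 43.4 and 38.1 CPM, and the WD mice lay between 45.8 and 70.7 CPM (median 56.9, n = 6), so that 1 CD mouse lay within the WD range. The log2 fold change was 0.48 in DBA/2J (SE 0.139, limma adjusted p = 0.0088) and 0.53 in A/J (SE 0.152, adjusted p = 0.015). Without A/J CD replicate 1 or WD replicate 3 the A/J call was lost, at 0.480 and 0.471 (limma adjusted p = 0.061 and 0.051), and with no filter on low counts both calls were lost (adjusted p = 0.26 in DBA/2J and 0.35 in A/J). In the other 4 tested strains the log2 differences lay between 0.10 and 0.19. The F test did not find that the strains differed in this effect (limma adjusted p = 0.28), so the rise cannot be called particular to DBA/2J and A/J.

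Cyp3a41a, Cyp3a41b and Cyp3a44, the female-predominant forms, were expressed in male PWK/PhJ livers on CD and nearly lost on WD. In PWK/PhJ on CD, Cyp3a41a lay between 25.9 and 204 CPM (median 59.2, n = 6), from 1287 to 10151 reads. On WD it lay between 0.0811 and 0.706 CPM (median 0.215, n = 7), from 4 to 40 reads. Every CD mouse was far above every WD mouse, and the log2 fold change was -8.20 (SE 0.524, limma adjusted p = 7.3e-23), a 295-fold lower level. Cyp3a41b lay between 1.55 and 11.5 CPM on CD (median 5.84) and between 0 and 0.0883 CPM on WD (median 0.0194), with no overlap. Its log2 fold change was -7.71 (SE 0.544, limma adjusted p = 1.9e-20), but this size depends on the small count added before taking logs, since the 7 WD mice had 9 reads in all and 3 of them had 0. The ratio of summed reads per depth was 233, with an exact 95% interval of 123 to 511 that covers counting error only. Cyp3a44 lay between 13.5 and 43.8 CPM on CD (median 29.5) and between 0.0858 and 0.847 CPM on WD (median 0.243). Its groups did not overlap either, and the log2 fold change was -6.75 (SE 0.667, limma adjusted p = 1.6e-13). These 3 genes entered the test only through the groups where they were high. Their p-values, here and below, are given as values only.

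The falls were present in both PWK/PhJ cohorts. Within cohorts the difference in mean log2 CPM was -7.60 and -8.24 for Cyp3a41a, -5.75 and -6.84 for Cyp3a41b, and -5.81 and -7.20 for Cyp3a44. In the PWK/PhJ CD mice the reads of Cyp3a41a were 9.90 to 17.8 times those of Cyp3a41b (median 11.4). Because the pair share most of their windows, the split between them is uncertain. Since these 3 genes entered the test only through the groups where they were high, the F test for a WD effect that differed among the 6 strains is given as a value and supports nothing. Its limma adjusted p was 7.9e-08 for Cyp3a41a and 2.8e-05 for Cyp3a44. For Cyp3a41b the limma adjusted p was 1.7e-09, but it was 0.053 with edgeR and 0.36 with DESeq2, so the call of a difference among strains rested on the method. Ddx3y, a gene of the Y chromosome, lay between 65.3 and 80.3 CPM in these CD mice, and Xist, the RNA of the inactive X chromosome, between 1.54 and 3.34 CPM, against 1.24 to 1.82 CPM on WD.

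**Figure D4:**
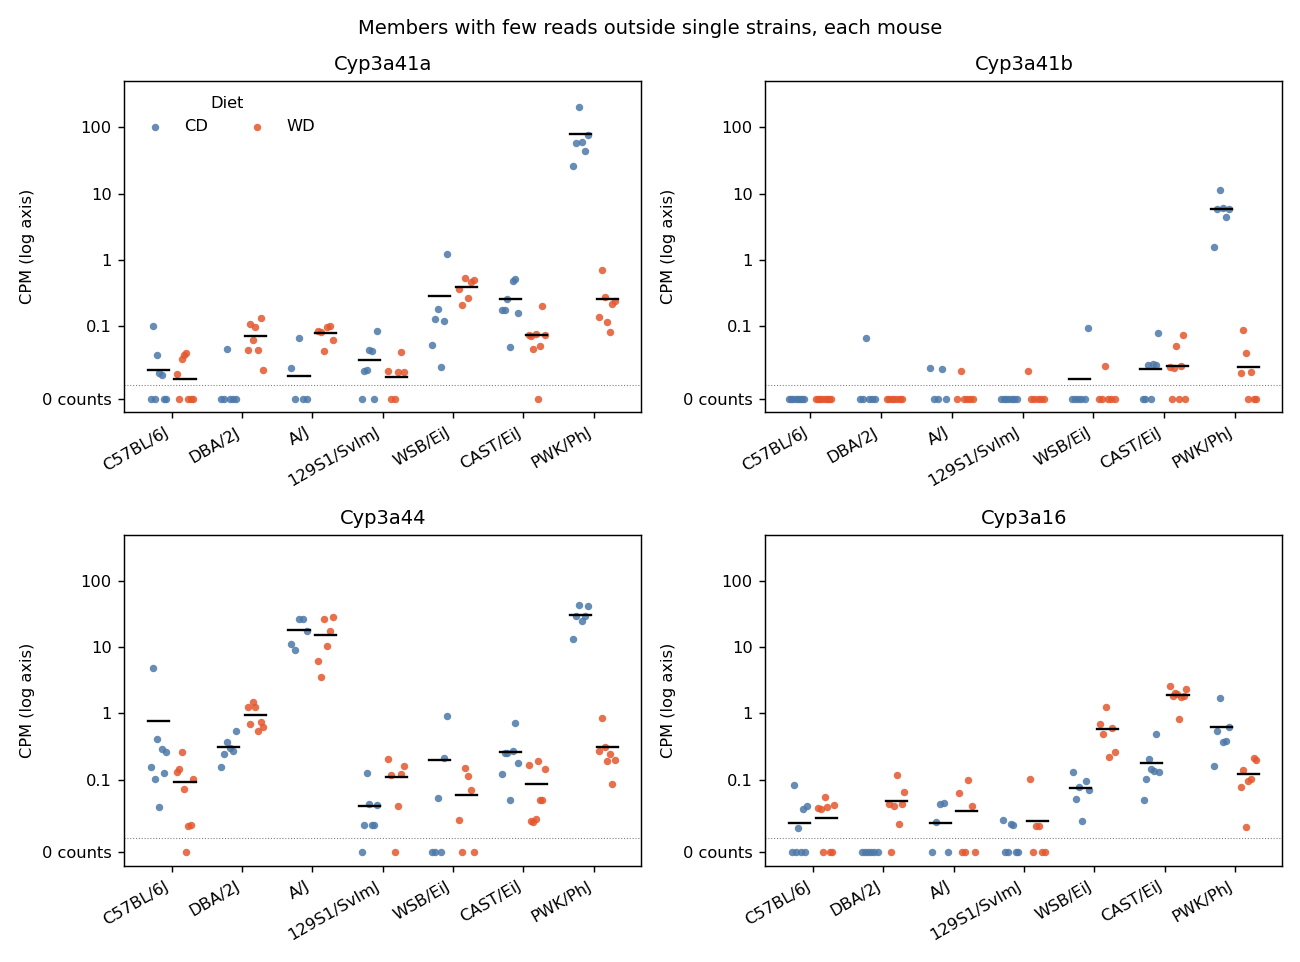
Levels of Cyp3a41a, Cyp3a41b, Cyp3a44 and Cyp3a16 in CPM (log axes, with mice of 0 counts drawn below the dotted line) in each mouse, by strain and diet, with 1 point per mouse. Black bars are group means and are left out where the mean lies below the dotted line. PWK/PhJ on CD, at 25.9 CPM or more, stands above all other groups for Cyp3a41a, and A/J on both diets joins it for Cyp3a44.

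Outside PWK/PhJ, Cyp3a41a and Cyp3a41b had few reads. On CD the mean of Cyp3a41a was at most 0.288 CPM in the other strains, reached in WSB/EiJ, and that of Cyp3a41b at most 0.0222 CPM, reached in CAST/EiJ. Relative to C57BL/6J on CD, where 1 mouse had 6 reads of Cyp3a41a and 4 had 0, the log2 fold change of Cyp3a41a in PWK/PhJ was 11.49 (SE 0.856, limma adjusted p = 4.6e-21), a size that depends on the few reads in C57BL/6J. Cyp3a41b had 0 reads in all 8 C57BL/6J mice on CD, so that its level in PWK/PhJ was at least 101-fold higher, against a floor of 3 counts per library. In WSB/EiJ on CD Cyp3a41a was higher than in C57BL/6J (log2 2.76, SE 1.07, limma adjusted p = 0.024), a call that was lost without WSB/EiJ CD replicate 6 (2.13, adjusted p = 0.11). On WD, the differences of Cyp3a41a were 1.35 in WSB/EiJ, 2.06 in A/J and 2.34 in DBA/2J (limma adjusted p = 0.35, 0.37 and 0.22), at means of at most 0.387 CPM. DESeq2 called the last of these (3.17, adjusted p = 0.017). In CAST/EiJ, described only, its mean was 0.258 CPM on CD and 0.0729 CPM on WD.

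Cyp3a44 was the only one of the 3 that was also expressed in A/J. The 5 CD mice of A/J had 11.1, 9.18, 27.2, 27.0 and 17.7 CPM, and the WD mice lay between 3.54 and 28.5 CPM (median 14.0, n = 6). The ranges overlapped, and the log2 difference was -0.48 (95% confidence interval -1.03 to 0.0693, limma adjusted p = 0.31). The interval is given as a value only, because Cyp3a44 entered the test only through high groups. On CD, Cyp3a44 was higher than in C57BL/6J both in A/J (log2 fold change 5.95, SE 0.633, limma adjusted p = 4.2e-13) and in PWK/PhJ (6.72, SE 0.623, adjusted p = 3.2e-16), and the ranges of A/J and PWK/PhJ overlapped. In C57BL/6J 1 CD mouse had 4.79 CPM and the other 7 between 0.0393 and 0.405 CPM. There the WD effect was -1.957 (SE 1.05, limma adjusted p = 0.17), and it was called by edgeR (-2.99, adjusted p = 0.00027), by DESeq2 (-3.03, adjusted p = 0.00013) and by limma with cohort in the fit (-2.33, adjusted p = 0.043). In DBA/2J the CD mice lay between 0.157 and 0.552 CPM (median 0.287, n = 6) and the WD mice between 0.541 and 1.49 CPM (median 0.737, n = 7). The log2 difference was 1.54 (SE 0.819, limma adjusted p = 0.20), and in a fit of DBA/2J alone it was 1.54 with an adjusted p of 0.0035.

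In the remaining strains Cyp3a44 was close to the limit of detection. In 129S1/SvImJ the mean was 0.0394 CPM on CD, a log2 difference of -2.77 from C57BL/6J (limma adjusted p = 0.058) that edgeR called (-4.22, adjusted p = 1.2e-05), and 0.109 CPM on WD. In WSB/EiJ it was 0.197 CPM on CD, where 3 of 6 mice had 0 reads, and 0.0591 CPM on WD. In CAST/EiJ it was 0.264 and 0.0847 CPM.

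Cyp3a16 had at most 109 reads in a mouse, and it fell on WD in PWK/PhJ and rose in WSB/EiJ. In PWK/PhJ it lay between 0.161 and 1.69 CPM on CD (8 to 84 reads, median 0.465 CPM, n = 6) and between 0.0196 and 0.214 CPM on WD (1 to 10 reads, median 0.101 CPM, n = 7). In WSB/EiJ it lay between 0.0238 and 0.130 CPM on CD (1 to 5 reads, median 0.0745 CPM, n = 6) and between 0.224 and 1.27 CPM on WD (10 to 51 reads, median 0.543 CPM, n = 6). The WSB/EiJ groups did not overlap, and those of PWK/PhJ overlapped slightly. The log2 fold change was -2.18 in PWK/PhJ (SE 0.448, limma adjusted p = 7.5e-05) and 2.68 in WSB/EiJ (SE 0.533, adjusted p = 0.00019). With 18 reads in all on CD in WSB/EiJ, the ratio of summed reads per depth was 7.90, with an exact 95% interval of 4.82 to 13.7 for counting error. Of the windows of Cyp3a16, 6.13% at 50 bases and 0.123% at 100 bases also occur in Cyp3a11. In WSB/EiJ, Cyp3a11 had a mean of 4559 reads on CD and 25850 on WD. The part of reads from Cyp3a11 or other related genes in the values of Cyp3a16 was not tested. The F test for a WD effect that differed among the 6 strains gave a limma adjusted p of 0.00057. Cyp3a16 entered the test only through high groups, so its p-values are given as values only. In CAST/EiJ, described only, the CD mice lay between 0.0490 and 0.488 CPM (2 to 19 reads, n = 7) and the WD mice between 0.824 and 2.63 CPM (34 to 109 reads, n = 8), a log2 difference of 3.54. In C57BL/6J, DBA/2J, A/J and 129S1/SvImJ no mouse had more than 5 reads. On CD it was higher in PWK/PhJ than in C57BL/6J (log2 4.46, SE 0.567, limma adjusted p = 9.7e-11). A WSB/EiJ difference that limma also called (adjusted p = 0.021) is given no fold, because both groups had means of at most 3 counts.

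The make-up of the family was computed from CPM per kilobase of the longest coding transcript, to compare members approximately. The values of Cyp3a41a and Cyp3a41b are too low because of shared reads. At 50 bases, Cyp3a59 (28%), Cyp3a25 (26.8%), Cyp3a44 (26.5%) and Cyp3a11 (14.8%) also had shared windows. For Cyp3a11 the length used was 2344 bases, while all its annotated exons together cover 5093. The effect of these on the shares was not tested. In C57BL/6J the median share of Cyp3a11 was 80.4% on CD (range 74.5 to 89.7, n = 8) and 80.1% on WD (78.2 to 91.6, n = 8), and in PWK/PhJ it was 78.2% (70.5 to 79.9, n = 6) and 75.9% (71.2 to 77.2, n = 7). In A/J it was 63.8% (53.9 to 65.5, n = 5) and 78.4% (71.8 to 80.1, n = 6). In DBA/2J it was 36.9% (25.9 to 43.6, n = 6) and 62.4% (54.7 to 68.9, n = 7), and in 129S1/SvImJ 28.2% (21.1 to 33.6, n = 7) and 69.8% (63.8 to 73.9, n = 6). The leading member thus changed from Cyp3a25 to Cyp3a11 in DBA/2J and 129S1/SvImJ, where the ranges on both diets were separate. In WSB/EiJ the share of Cyp3a11 was 7.56% on CD (4.87 to 14.0, n = 6) and 29.8% on WD (10.6 to 38.0, n = 6), and in CAST/EiJ 5.64% (4.35 to 10.5, n = 7) and 35.5% (25.5 to 50.9, n = 8). In these 2 strains Cyp3a25 led on CD, at medians of 75.2% and 87.3%. Cyp3a13 held a median of 16.7% in WSB/EiJ and 13.7% in 129S1/SvImJ on CD, and under 5% in the other CD groups. In PWK/PhJ on CD, Cyp3a41a held between 0.640 and 4.05% (median 0.976%) and Cyp3a44 between 0.350 and 1.15% (median 0.485%).

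The summed level of the family, in CPM per kilobase, had a median of 616 on CD and 972 on WD in WSB/EiJ, 456 and 1154 in 129S1/SvImJ, 1490 and 3141 in A/J, 841 and 1516 in DBA/2J, and 1387 and 2752 in CAST/EiJ. In C57BL/6J it was 1592 and 1836, and in PWK/PhJ 2676 and 2595. These sums are descriptions, since Cyp3a11 makes up most of their movement. Ranges on both diets were separate in WSB/EiJ (517 to 650 and 869 to 1057), 129S1/SvImJ (340 to 590 and 821 to 1409) and DBA/2J (718 to 1028 and 1298 to 1906).

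**Figure D5:**
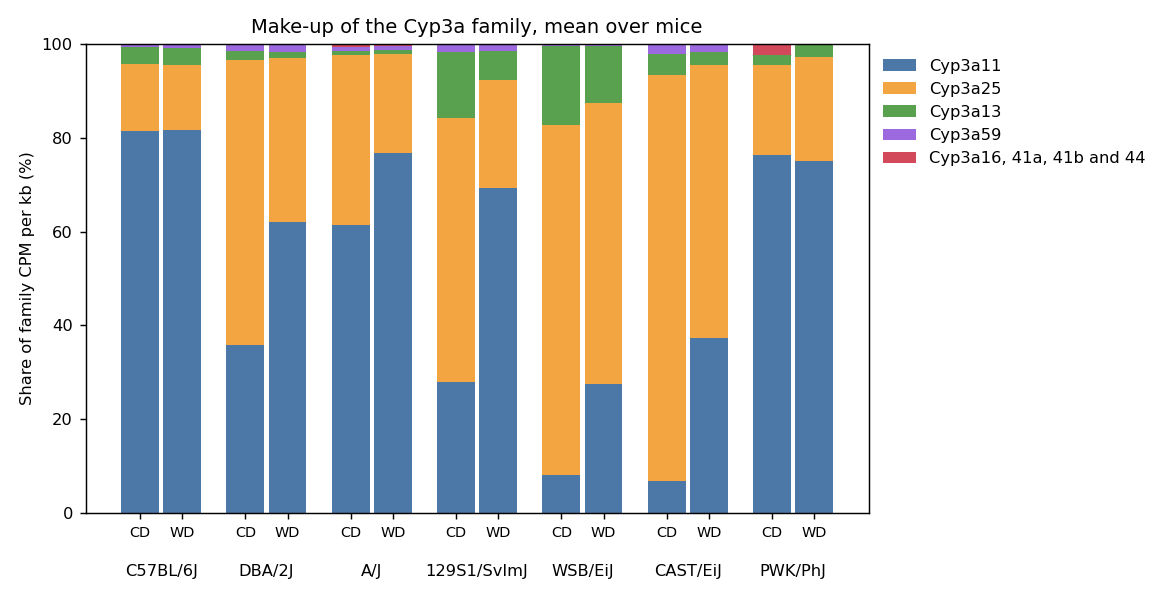
Share of each member in the summed Cyp3a level (CPM per kilobase, in percent, mean over the mice of a group), by strain and diet. The blue Cyp3a11 part is largest in C57BL/6J and PWK/PhJ on CD and larger on WD than on CD in DBA/2J, A/J, 129S1/SvImJ, WSB/EiJ and CAST/EiJ, and the orange Cyp3a25 part leads in WSB/EiJ and CAST/EiJ on both diets.

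The other genes of the pathway were described by lists, with the counts called on WD in the 6 tested strains and with no test of the list. The lists were chosen with earlier results of these data known, so no excess over all genes is read from their counts. For every list, the shares of all genes that rose or fell in each strain are those given above for the members. Of 12 receptors and liver factors known to act on Cyp3a genes, between 0 and 2 rose and between 0 and 3 fell, with list medians from -0.222 to 0.23 on the log2 scale, while the median of all genes was between -0.011 and 0.0054. Nr1i2 (PXR) and Nr1i3 (CAR) were called in none of the 6 strains by limma, and their group means ranged from 51.0 to 126 CPM and from 7.73 CPM (PWK/PhJ on WD) to 44.4 CPM (129S1/SvImJ on CD). Cebpa, a hepatocyte transcription factor, fell in DBA/2J (log2 -0.792), WSB/EiJ (-0.44) and 129S1/SvImJ (-0.417), with limma adjusted p = 2.6e-07, 0.013 and 0.0058. In 129S1/SvImJ, Nr1h4, the bile acid receptor, and Hnf4a, a master factor of hepatocytes, also fell (-0.507 and -0.312, adjusted p = 0.0004 and 0.039), while Foxa2 and the vitamin D receptor gene Vdr rose (1.01 and 1.84, adjusted p = 0.00029 and 0.0036). In DBA/2J the glucocorticoid receptor gene Nr3c1 rose (0.239, adjusted p = 0.042). In C57BL/6J, Vdr and Cebpb rose (1.81 and 0.663, adjusted p = 0.0035 and 0.0079). In PWK/PhJ Rxra, the partner of PXR and CAR, fell (-0.267, limma adjusted p = 0.022), and in A/J limma called 0 regulators, where 1 was higher and 1 lower at an unadjusted p under 0.05 and edgeR and DESeq2 called 0.

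Of 27 other known PXR or CAR targets, 13 rose and 1 fell in 129S1/SvImJ, 10 rose and 0 fell in DBA/2J, 7 rose and 3 fell in WSB/EiJ, 7 rose and 1 fell in C57BL/6J, 5 rose and 0 fell in A/J, and 5 rose and 5 fell in PWK/PhJ. The share of all genes tested that rose was 14.5% for 129S1/SvImJ, 10.2% for DBA/2J, 4.97% for WSB/EiJ, 14.3% for C57BL/6J, 4.39% for A/J and 15.1% for PWK/PhJ. The share that fell, in the same order of strains, was 13.6%, 7.77%, 3.97%, 11.9%, 4.64% and 14.5%. The PWK/PhJ counts of the list were thus near the shares of all genes. The list medians, in the same order of strains, were 0.582, 0.461, 0.539, 0.204, 0.492 and 0.0568 on the log2 scale. In A/J edgeR and DESeq2 called 9 of these genes higher, in place of 5. Ces2c, a carboxylesterase, rose in 129S1/SvImJ (log2 2.48, limma adjusted p = 5.8e-10), WSB/EiJ (2.54, adjusted p = 0.00025) and DBA/2J (1.56, adjusted p = 6.3e-05). In PWK/PhJ, where Cyp3a11 was not called, Ces2c rose too (1.86, limma adjusted p = 0.00074), as did the glutathione transferase gene Gsta1 (2.95, adjusted p = 4.5e-05) and Cyp2b10 (3.56, adjusted p = 0.014), the last from 0.118 to 0.941 CPM. In A/J, Gsta2 (2.26, adjusted p = 0.002), Abcb1a, a drug exporter (1.88, adjusted p = 2.4e-05), and the flavin monooxygenase gene Fmo5 (0.989, adjusted p = 1.2e-07) rose by limma's test.

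Of 14 electron donors and heme synthesis genes that serve P450 enzymes, between 1 and 3 rose and between 0 and 4 fell, with list medians from -0.139 to 0.0798. Por, the P450 reductase, rose in DBA/2J (log2 0.771, limma adjusted p = 0.0092), and Alas1, the first enzyme of heme synthesis, rose in A/J (1.93, adjusted p = 0.0079). In 14 genes of the zone around the central vein, where P450 enzymes are concentrated, between 1 and 6 rose and between 0 and 3 fell. In 15 acute phase and cytokine genes, between 2 and 10 rose and between 0 and 1 fell. List medians ran from -0.102 to 0.336 for the central vein genes and from 0.542 to 1.52 for the acute phase genes. Of all genes tested, between 4.39% (A/J) and 15.1% (PWK/PhJ) rose and between 3.97% (WSB/EiJ) and 14.5% (PWK/PhJ) fell.

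Of 16 other genes known as higher in female than in male mouse liver, 6 fell and 0 rose on WD in PWK/PhJ, where 14.5% of all genes tested fell and 15.1% rose. The list median was -0.909, and no test of the list was run. At an unadjusted p under 0.05 there were 9 lower and 0 higher, while edgeR called 7 lower and 0 higher and DESeq2 called 7 and 1. Sult3a1, a sulfotransferase, lay between 82.7 and 588 CPM on CD (median 153, n = 6) and between 0.116 and 1.49 CPM on WD (median 0.519, n = 7). Every CD mouse was far above every WD mouse, with a log2 fold change of -8.65 (SE 0.505, limma adjusted p = 5.2e-25). Outside PWK/PhJ on CD and CAST/EiJ, the group means of Sult3a1 were at most 0.57 CPM. A1bg fell by 3.17 on the log2 scale, from a mean of 0.341 CPM to 0.0135 CPM (limma adjusted p = 0.0074). Through which groups Sult3a1 and A1bg passed the filter on low counts was not examined, so their p-values are given as values only. In the other strains the list had 3 up and 0 down in A/J, 2 and 2 in 129S1/SvImJ, 1 and 3 in WSB/EiJ, 2 and 0 in DBA/2J, and 3 and 4 in C57BL/6J. With edgeR and DESeq2 the number lower in C57BL/6J was 8. In A/J, which expressed Cyp3a44 on both diets, the 3 that rose were Cyp2b13 (log2 3.50), Cyp2a22 (2.52) and Hao2 (2.39). Of 17 genes known as higher in male liver, 1 rose and 1 fell in PWK/PhJ, and in the other strains between 0 and 5 rose and between 0 and 3 fell.

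Markers of other cell types moved with diet in PWK/PhJ as well. The summed level of 6 stellate cell markers lay between 61.2 and 110 CPM on CD and between 164 and 450 CPM on WD, with 3 of 6 called higher, and that of 5 cholangiocyte markers between 64.5 and 140 CPM and between 159 and 525 CPM, with 4 of 5 higher. The 8 hepatocyte markers summed to 111600 to 136200 CPM on CD and 73260 to 97510 CPM on WD, with 4 of 8 lower, and unmapped reads made up 3.50 ± 0.708% (SD, n = 6) on CD and 7.88 ± 1.18% (n = 7) on WD. Cyp3a11 and Cyp3a25, measured in the same libraries, had log2 differences of -0.10 and 0.15. The part of cell types and of unmapped reads in the PWK/PhJ falls was not tested. In WSB/EiJ the hepatocyte sum lay between 142000 and 175200 CPM on CD and between 64150 and 109400 CPM on WD, with no overlap, as in A/J, where it lay between 182600 and 216300 CPM on CD and between 133500 and 156400 CPM on WD. In C57BL/6J, where Cyp3a11 was not called, it did not overlap either (110100 to 131400 and 74730 to 91940 CPM, 4 of 8 lower). The same held in CAST/EiJ, described only (108500 to 131300 and 72710 to 94740 CPM). In 129S1/SvImJ the hepatocyte sums overlapped, and those of several other cell types did not. There the sum of 6 macrophage markers lay between 117 and 195 CPM on CD and between 202 and 283 CPM on WD, with 4 of 6 higher. The stellate cell sum ran from 115 to 138 CPM on CD and from 162 to 219 CPM on WD (3 of 6 higher), the cholangiocyte sum from 21.3 to 43.1 and from 59.7 to 102 CPM (1 of 5 higher), and the lymphocyte sum from 7.04 to 12.0 and from 16.9 to 28.4 CPM (4 of 6 higher). Sums of stellate cell markers in A/J (88.0 to 116 CPM on CD, 125 to 161 CPM on WD) and of cholangiocyte markers in WSB/EiJ (17.2 to 26.7 and 27.7 to 32.2 CPM) did not overlap between diets either. Their part in the rise of Cyp3a11 was not tested. Over the 6 strains between 0 and 4 of 6 lymphocyte markers, between 0 and 2 of 5 endothelial markers, and between 0 and 1 of 3 tested adipocyte markers rose. Between 0 and 2 of the endothelial markers fell, and in DBA/2J 2 of them fell and 0 rose. Of 5 enterocyte markers, 3 had a median of at most 3 reads over all 93 mice. Of the rest, Fabp2 rose in every tested strain while Vil1 rose in PWK/PhJ and fell in A/J. All 5 acinar cell markers had a median of at most 3 reads over all 93 mice, and were high in single mice, up to a sum of 1326 CPM. They were called in 0 strains by limma (0 also at an unadjusted p under 0.05). With edgeR all 5 were lower in WSB/EiJ on WD, and with DESeq2 0.

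The genes whose pattern over the 14 group means was most like that of a member were ranked by Pearson r of log2 CPM, among 11139 genes. The points share libraries, depth and the reference genome, and the values are descriptions. For Cyp3a11 they were Tcta (0.909), Cybc1 (0.899) and Smc2 (0.897). For Cyp3a13 they were Hc (0.949) and Atpaf1 (0.903), and for Cyp3a25 C2 (0.931), Pigv (0.919) and Zfp174 (0.906). For Cyp3a59 they were LTO1 (0.948), Gm14325 (0.919) and Serpina3g (0.903). For Cyp3a44 they were Zfp688 (0.886), Gm13375 (0.853) and Trib3 (0.848), and for Cyp3a16 Mcts1 (0.887), Fam53a (0.878) and Eef1akmt2 (0.867). For Cyp3a41a they were Ndufb1-ps (0.884), Mrpl11 (0.871) and Stoml2 (0.857), and for Cyp3a41b Ndufb1-ps (0.854), Trib2 (0.847) and Inafm1 (0.840).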

How the data were processed

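Liver mRNA was sequenced on the BGISEQ-500 from SMARTER mRNA-Seq libraries, and the authors deposited raw read counts per gene, made with STAR 2.7.1a according to the submitters' processing notes (GRCm38/mm10). The annotation release and strand setting are not given in the sources used here. Summary rows that name no gene held 19.9 to 34.7% of reads and were left out, and no pair of mice had identical counts. Of 53465 gene IDs, 53274 had a symbol.

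Genes were filtered with filterByExpr of edgeR 4.0.16 (minimum count of 10), scaled by TMM (factors 0.81 to 1.27) and fitted with voom in limma 3.58.1 (R 4.3.3) as 14 group means. P-values were adjusted by Benjamini-Hochberg over 19110 genes, with a threshold of 0.05, and measure the spread between mice. Within each of 6 strains WD was compared with CD, and 5 strains were compared with C57BL/6J on CD. F tests compared the 6 strains. CAST/EiJ entered the fit but not the tests. Log2 CPM values used a prior count of 2. The scripts were tested on simulated data.

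The members and gene lists were chosen with earlier results of these data known. All 8 members were named, with up to 3 called genes of largest change per list and strain for the strains described, every called regulator, and the 3 most similar genes per member. Values of some genes that this rule names are not reported here. The lists were PXR and CAR targets, regulators, P450 partners and heme genes, female-biased and male-biased genes, pericentral genes, acute phase genes, and markers of hepatocytes, macrophages, lymphocytes, stellate cells, endothelium, cholangiocytes, enterocytes, acinar cells and adipocytes. Alternatives were edgeR's quasi-likelihood test, DESeq2 1.42.0 with its own size factors, no filter, cohort as a covariate, separate fits, the sum of Cyp3a41a and Cyp3a41b, and leaving out each mouse. Leaving out mice of strains other than A/J was chosen after seeing the data. WSB/EiJ shared no cohort with another strain.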

Additional observations from a re-analysis of the deposited data

Results flagged for a closer look

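In 15 of 81 pairs of a member and a group, 1 mouse stood apart from the others of its group by Dixon's test on CPM. For independent values of normal spread, chance alone gives this in about 1 of 20. The pairs share mice and the form of the spread was not checked, so the count is not set against that rate. The values are given with no explanation.

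In PWK/PhJ on CD, replicate 3 had 204 CPM of Cyp3a41a (others 25.9 to 75.3) and 1.69 CPM of Cyp3a16 (others 0.161 to 0.633). Replicate 5 of the same group had 15.7 CPM of Cyp3a59 (others 3.99 to 7.84). In PWK/PhJ on WD, replicate 2 had 0.706 CPM of Cyp3a41a (others 0.0811 to 0.274) and 0.847 CPM of Cyp3a44 (others 0.0858 to 0.313). In that group replicate 6 had 199 CPM of Cyp3a13 (others 153 to 170), and replicate 4 had 26.2 CPM of Cyp3a59 (others 7.94 to 15.2). In WSB/EiJ on CD, replicate 6 had 1.22 CPM of Cyp3a41a (others 0.0238 to 0.183) and 0.916 CPM of Cyp3a44 (others 0 to 0.213), while replicate 1 had 209 CPM of Cyp3a11 (others 70.7 to 119). In WSB/EiJ on WD, replicate 4 had 631 CPM of Cyp3a13 (others 235 to 358). In C57BL/6J on CD, replicate 2 had 4.79 CPM of Cyp3a44, or 285 reads (others 0.0393 to 0.405 CPM). In CAST/EiJ on CD, replicate 6 had 0.488 CPM of Cyp3a16 (others 0.049 to 0.203) and 0.719 CPM of Cyp3a44 (others 0.0486 to 0.27). In CAST/EiJ on WD, replicate 5 had 0.824 CPM of Cyp3a16, below the others (1.79 to 2.63).

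The F test in limma called a WD effect that differed among the 6 tested strains for 5 members. All but Cyp3a11 had entered the test only through the groups where they were high, so their p-values support nothing. The adjusted p was 3.2e-10 for Cyp3a11, 1.7e-09 for Cyp3a41b, 7.9e-08 for Cyp3a41a, 2.8e-05 for Cyp3a44 and 0.00057 for Cyp3a16. Cyp3a41b did not pass with edgeR (0.053) or DESeq2 (0.36).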

How the results depend on the processing

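No paired analysis was possible because the labels give no replicate numbers that tie a CD mouse to a WD mouse. Of 76 counts of members called, recomputed under the settings other than leaving out a mouse, 66 stayed within 1.5 times and 10 did not. On CD, 129S1/SvImJ had 2 members that differed from C57BL/6J, in place of 1, with edgeR, DESeq2, no filter and cohort in the fit. On WD, DBA/2J had 5 in place of 3 with DESeq2, C57BL/6J had 0 in place of 1 with no filter and in a separate fit (where 4 members were measured) and 2 with cohort, and A/J and WSB/EiJ had 1 each in place of 2 with no filter. For single members, 428 of 464 values kept their direction and side of the threshold, 16 lost and 15 gained a call, and 5 reversed: Cyp3a44 on CD in DBA/2J was -1.32 with edgeR, -1.31 with DESeq2 and -1.10 with cohort (0.17 as reported), Cyp3a59 there was -0.132 with cohort, and Cyp3a13 in 129S1/SvImJ was -0.164 with cohort. The cause was not tested.

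Leaving out 1 mouse gave 0 to 2 members called on WD in C57BL/6J, 3 to 4 in DBA/2J, 1 to 3 in A/J, 2 in 129S1/SvImJ and WSB/EiJ and 4 to 5 in PWK/PhJ. It gave 1 to 2 on CD in 129S1/SvImJ, 3 in DBA/2J, 3 to 4 in A/J, 5 to 6 in WSB/EiJ and 6 to 7 in PWK/PhJ. Of 1811 values of single members, 1767 kept their direction and call, and 17 reversed, none of them called. These were Cyp3a44 on CD in DBA/2J (-0.179 to 0.825), and on WD Cyp3a25 in A/J (-0.0492 to 0.102) and 129S1/SvImJ (-0.106 to 0.0121), Cyp3a44 in WSB/EiJ (-0.709 to 0.586) and Cyp3a13 in WSB/EiJ (-0.0243 to 0.259). With DESeq2 scaling the median log2 difference of all genes lay between -0.039 and 0.012. Few reads limit Cyp3a16 throughout, Cyp3a41a and Cyp3a41b outside PWK/PhJ on CD, and Cyp3a44 outside PWK/PhJ and A/J.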

Other observations

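A related gene of the cluster, the pseudogene Cyp3a63-ps, was outside the 8 genes and was looked at after its values were seen. In PWK/PhJ it lay between 8.36 and 64.1 CPM on CD (mean 31.4, n = 6) and between 0 and 0.406 CPM on WD (mean 0.126, n = 7), with no overlap. In the other strains its mean was at most 0.397 CPM, reached in WSB/EiJ on CD, where 1 mouse had 2.26 CPM. Of the windows of Cyp3a44, 10.6% at 50 bases and 2.58% at 100 bases also occur in Cyp3a63-ps. The part of reads from related genes in its values was not tested. Cyp3a57, another gene of the family, lay between 0.482 and 1.05 CPM on CD in PWK/PhJ (mean 0.733) and between 1.69 and 4.47 CPM on WD (mean 3.03), so that its order of diets was opposite to that of Cyp3a63-ps. Neither gene was tested as a member of the family.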
